A study of Mus musculus with 24 samples.

Results

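This comparison asked whether the aorta of mice lacking IL-17 responded to a vessel-damaging infusion differently from the aorta of wild-type mice, on plain drinking water. For each gene the infusion change in the knockout (infused minus vehicle, log2) had the infusion change in the wild type subtracted from it. A positive difference therefore means a change that was more upward, or less downward, in the knockout. The difference used 12 of the 24 arrays of the series, 3 in each of 4 groups, and was computed for all 23505 genes that could be tested.

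All mice were C57BL/6 on normal chow. The 4 groups were wild-type mice given vehicle, wild-type mice infused for 3 days with β-aminopropionitrile (BAPN) and angiotensin II, IL-17 knockout mice given vehicle, and IL-17 knockout mice given the same infusion. BAPN and angiotensin II were given together in every infused group, so neither agent's own part can be told apart. The other 12 arrays came from the same 4 groups drinking 1% NaCl before and during the infusion and serve below as a second, separate set of arrays. The labels do not name the IL-17 gene that was deleted, and age, sex and the cells that lack the gene are not given in the sources used here. The probes for Il17a and Il17f, the cytokine genes most often meant by IL-17, were well above background on 0 of 24 arrays, wild-type arrays included, so the deletion could not be checked from these signals.

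Signals are log2 spot intensity relative to the array's own 75th percentile, so 0 is a fairly bright spot and about -4 to -5 is the limit of detection. The series states biological replicates, and their number, 3 a group, limits the precision of every value. Contractile smooth muscle genes were bright, with a median over 24 genes between 4.19 and 5.86 on the 12 arrays, and Acta2 alone read 8.84 to 9.95. Between 51.1% and 57.9% of spots were well above background on knockout arrays and between 56.6% and 60.8% on wild-type arrays, and no spot was saturated. No slide held arrays of both genotypes, so genotype and slide cannot be told apart where knockout and wild type are compared directly, in which 8721 genes (37.1%) passed between vehicle groups and 10852 (46.2%) between infused groups. The knockout vehicle arrays and infused arrays 1 and 2 shared a slide, while infused array 3 lay on another. The wild-type vehicle and infused arrays lay on different slides, so no infusion change within a slide could be had in the wild type on plain water. Without a term for slide, the wild-type infusion change, and with it every difference between the genotypes, cannot be told apart from slide. The third infused array of each genotype also stood apart: on the second principal component (29.8% of the variance) it read 0.92 in the knockout, where the other infused arrays read -59.4 and -31.3 and the controls 70.0 to 71.4, and -31.9 in the wild type, where the others read -81.1 and -94.6 and the controls 17.1 to 35.0. In both genotypes the third array thus lay between the controls and the other infused arrays, and the results below are given with and without this pair where they differ.

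BAPN blocks the lysyl oxidases, enzymes that crosslink collagen and elastin, and angiotensin II is a peptide hormone that constricts arteries, raises blood pressure and draws monocytes into the vessel wall. Together they weaken the aortic wall and are used to bring on dissection in mice. IL-17A and IL-17F are cytokines of T helper 17 cells and some innate lymphocytes. They bind the receptor chains IL-17RA and IL-17RC on fibroblasts, smooth muscle and epithelium and act with other cytokines to raise IL-6, lipocalin 2 and the chemokines that attract neutrophils. Interferons act through cell-surface receptors to induce a set of antiviral genes whose promoters often carry a shared response element.

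Infused and vehicle arrays differed in much of the aortic transcriptome in both genotypes, and mostly in the same genes and direction. In the wild type these arrays also differed in slide. In the knockout 7195 of 23505 genes (30.6%) passed an adjusted p of 0.05, of which 3379 rose (14.4%) and 3816 fell (16.2%). In the wild type 6087 passed (25.9%), of which 2856 rose (12.2%) and 3231 fell (13.7%). Of these, 4227 passed in both genotypes, 4224 in the same direction and 3 in opposite directions. The shared genes are 69.4% of the wild-type list and 58.7% of the knockout list. Across all genes the infusion changes of the 2 genotypes, which share no array, had a Pearson r of 0.815. Genes are not independent replicates, and each axis carries the array effects of its own slides. Among genes that passed in both, the median size of the change was 0.89 in the knockout and 0.84 in the wild type (log2), and 57.7% changed more in the knockout.

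The difference between the genotypes was then tested itself. With limma, 0 of 23505 genes (0%) passed an adjusted p of 0.05, and the smallest adjusted p was 0.22. At an unadjusted p under 0.05 there were 1541 genes (6.56%), 726 with the positive sign (3.09%) and 815 with the negative sign (3.47%). The median difference was -0.01, and the 5th and 95th percentiles were -0.77 and 0.63. For 13828 genes (58.8%) the 95% interval of the difference lay within 1 log2 unit of 0, so for these genes a difference of more than 2-fold lies outside the interval. For the remaining genes differences of that size lie within it. Of the 1860 genes that passed for infusion in the wild type only, 468 had an unadjusted p under 0.05 for the difference, and of the 2968 in the knockout only, 534 did. Most genes that passed in 1 genotype only thus had an unadjusted p for the difference above 0.05.

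**Figure D1:**
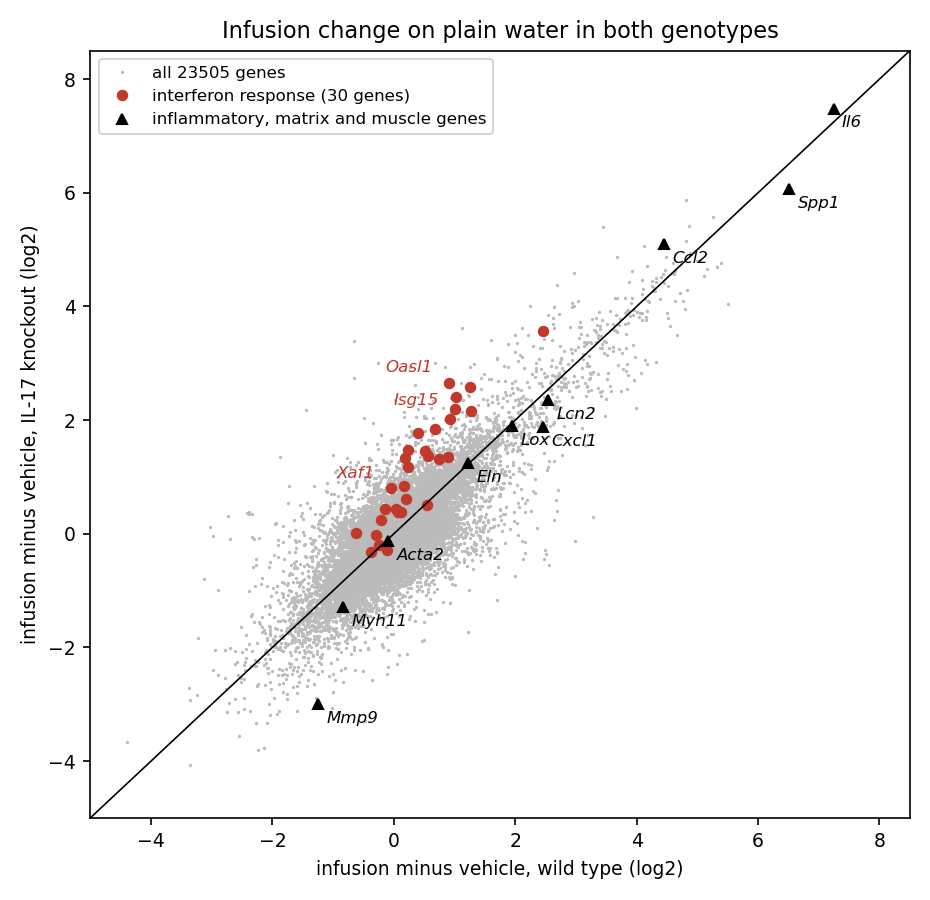
Infusion change in the wild type (x axis) against the knockout (y axis), in log2, for all 23505 genes (grey), 30 interferon-response genes (red) and 10 inflammatory, matrix and muscle genes (triangles); the line marks equal change. Most genes lie along the line, Il6 at 7.25 and 7.48, while 28 of the 30 interferon-response genes lie above it.

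The third infused arrays bear on these counts. Without the third infused array of both genotypes 43 genes passed (0.183%), 16 positive and 27 negative, and all 43 had the same sign with every array in. Without infused knockout array 3 alone 63 genes passed, and without infused wild-type array 3 alone 14 did; 28 of the 63 and 14 of the 14 were among the 43. The 43 included Syt10 (4.51), Stard3 (0.98), Alg3 (0.93), Il17d (-1.28), Acan (-1.37) and Ppp1r37 (-1.25), all described below. Others, named here after their values were seen, were Map1lc3a, an autophagosome protein (-1.69 without the third arrays and -1.20 with them), Phf1, a Polycomb-associated protein (-1.90 and -1.41), Cdkn2b, a cyclin-dependent kinase inhibitor (-1.74 and -0.87), Gigyf2, a translation repressor (-1.99 and -1.55), and Cdc27, a subunit of the anaphase-promoting complex (0.90 and 0.64). Of the 12 genes of smallest p described next, Alg3, Syt10, Hpdl, Stard3, Gm9706, Sesn3, Tmtc2, Ankrd26 and 5033417F24Rik passed without infused knockout array 3, and Syt10, Stard3 and Ppp1r37 without infused wild-type array 3. With 2 infused arrays a genotype, the spread in these tests comes mostly from the other groups.

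The 12 named genes of smallest p, 6 of each sign, are given with every array. None passed the adjusted threshold with all 12 arrays, so they are described as values. Alg3 encodes a mannosyltransferase that builds the sugar chain of glycoproteins in the endoplasmic reticulum (probe at mm9 chromosome 16, 20606032 to 20606610). It read -0.46, -0.32 and -0.46 on the knockout vehicle arrays, 0.45, 0.57 and 0.34 on the knockout infused arrays, -0.08, -0.07 and -0.29 on the wild-type vehicle arrays and 0.04, -0.34 and -0.15 on the wild-type infused arrays. The knockout groups did not overlap and the wild-type groups did. Alg3 rose 1.83-fold in the knockout (adjusted p = 4.8e-05), and the difference from the wild type was 0.87 ± 0.15 (log2, SE, n = 3 per group; unadjusted p = 1.7e-05, adjusted p = 0.22).

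Syt10, a synaptotagmin of secretory vesicles (mm9 chromosome 15, 89612967 to 89613026), had the largest difference of the 12. It read -3.28, -3.71 and -3.37 with vehicle and 0.07, 0.21 and -0.47 with infusion in the knockout, against -3.90, -3.34 and -3.79 and then -4.11, -5.07 and -3.80 in the wild type. All 3 infused knockout arrays were more than 2 log2 units above the other 9, and 1 of the 3 infused wild-type arrays was not well above background. Syt10 rose 10.5-fold in the knockout (adjusted p = 0.00018), and the difference was 4.04 ± 0.71. On the salt arrays, which are other animals, it was 3.27 (unadjusted p = 0.00021, adjusted p = 0.12).

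Hpdl, a mitochondrial dioxygenase-like protein (mm9 chromosome 4, 116492536 to 116492595), moved in opposite directions. It rose 1.33-fold in the knockout, from -1.19, -1.41 and -1.14 to -0.69, -0.93 and -0.88 (adjusted p = 0.0097), and fell 1.32-fold in the wild type, from -0.54, -0.59 and -0.47 to -0.68, -1.03 and -1.09 (adjusted p = 0.014). Infused and vehicle arrays did not overlap in either genotype, and the difference was 0.81 ± 0.16. Such opposite, non-overlapping changes were seen in 49 of the 23481 genes with a value on all 12 arrays (0.209%).

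Stard3, a cholesterol-binding protein of late endosomes (mm9 chromosome 11, 98242252 to 98242311), fell 1.5-fold in the wild type, from 2.64, 2.66 and 2.63 to 2.01, 1.85 and 2.33 (adjusted p = 0.0016). In the knockout it read 1.64, 1.97 and 1.89 and then 2.12, 2.07 and 1.88, with overlap. The infused groups of both genotypes overlapped, and the difference of 0.77 ± 0.16 arose over vehicle levels that differed by -0.81 (knockout minus wild type, adjusted p = 2.6e-05). Gm9706, a gene with only a provisional name (mm9 chromosome 17, 46543886 to 46543945), rose 4.13-fold in the knockout, from -2.79, -2.18 and -2.05 to -0.51, 0.38 and -0.76, and read -1.34, -1.38 and -1.32 and then -0.95, -0.72 and -1.27 in the wild type, a difference of 1.68 ± 0.36. Prrc2a, an RNA-binding protein (mm9 chromosome 17, 35286681 to 35286854), fell 2.51-fold in the wild type, from -0.83, -1.15 and -0.86 to -2.43, -2.50 and -1.90 (adjusted p = 0.00017). It read 0.51, 0.59 and 0.64 and then 0.41, 0.26 and 0.56 in the knockout. The positive difference of 1.16 ± 0.27 thus lay mostly in the wild-type arrays, whose vehicle and infused groups were on different slides.

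Among negative differences, Sesn3, a stress-induced inhibitor of mTORC1 (mm9 chromosome 9, 14130452 to 14130511), fell 1.51-fold in the knockout, from 0.30, 0.19 and 0.16 to -0.38, -0.29 and -0.44 (adjusted p = 0.00029). The wild-type arrays read -0.05, -0.08 and -0.23 and then -0.01, -0.12 and 0.09, and the difference was -0.70 ± 0.13, beside -0.51 on the salt arrays. Tmtc2, which adds mannose to proteins in the endoplasmic reticulum (mm9 chromosome 10, 104624859 to 104624918), fell 1.97-fold in the knockout, from 2.14, 2.92 and 2.67 to 1.35, 1.65 and 1.81 (adjusted p = 0.0029). Its wild-type arrays went from 0.95, 0.84 and 0.28 to 1.36, 1.29 and 1.1, a change that did not pass (adjusted p = 0.063). The difference was -1.54 ± 0.31, with all infused arrays below their controls in the knockout and above them in the wild type.

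Ankrd26, an ankyrin-repeat protein of the centriole (mm9 chromosome 6, 118452590 to 118452649), fell 1.65-fold in the knockout, from -0.60, -0.70 and -0.63 to -1.30, -1.51 and -1.29, and read -1.28, -1.29 and -1.19 and then -1.27, -1.24 and -0.92 in the wild type. The infused knockout arrays came close to the wild-type vehicle arrays, and the difference was -0.84 ± 0.17. Ppp1r37, a regulatory subunit of protein phosphatase 1 (mm9 chromosome 7, 20116572 to 20116631), rose 1.72-fold in the wild type, from -1.16, -1.28 and -1.05 to -0.39, -0.01 and -0.73 (adjusted p = 0.0012). It read -0.23, -0.06 and -0.17 and then -0.49, -0.39 and -0.31 in the knockout, and the difference was -1.03 ± 0.21.

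Paqr8, a membrane progesterone receptor (mm9 chromosome 1, 20928523 to 20928582), rose 1.84-fold in the wild type, from -3.59, -3.07 and -4.04 to -2.75, -2.68 and -2.64 (adjusted p = 0.0045). The knockout arrays overlapped, at -3.56, -2.99 and -3.18 and then -3.83, -3.39 and -3.82, and the difference was -1.32 ± 0.29. The last of the 12, 5033417F24Rik (mm9 chromosome 1, 94805797 to 94805856), fell 1.58-fold in the knockout, from -2.56, -2.77 and -2.58 to -3.62, -3.27 and -2.99, beside -2.35, -2.31 and -2.28 and then -2.16, -1.97 and -2.02 in the wild type, a difference of -0.92 ± 0.20. Its second probe gave -0.35. With a term for slide in the model the 12 differences kept their signs and none passed, while Prrc2a went from 1.16 to 0.58 and Sesn3 from -0.70 to -0.46.

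**Figure D2:**
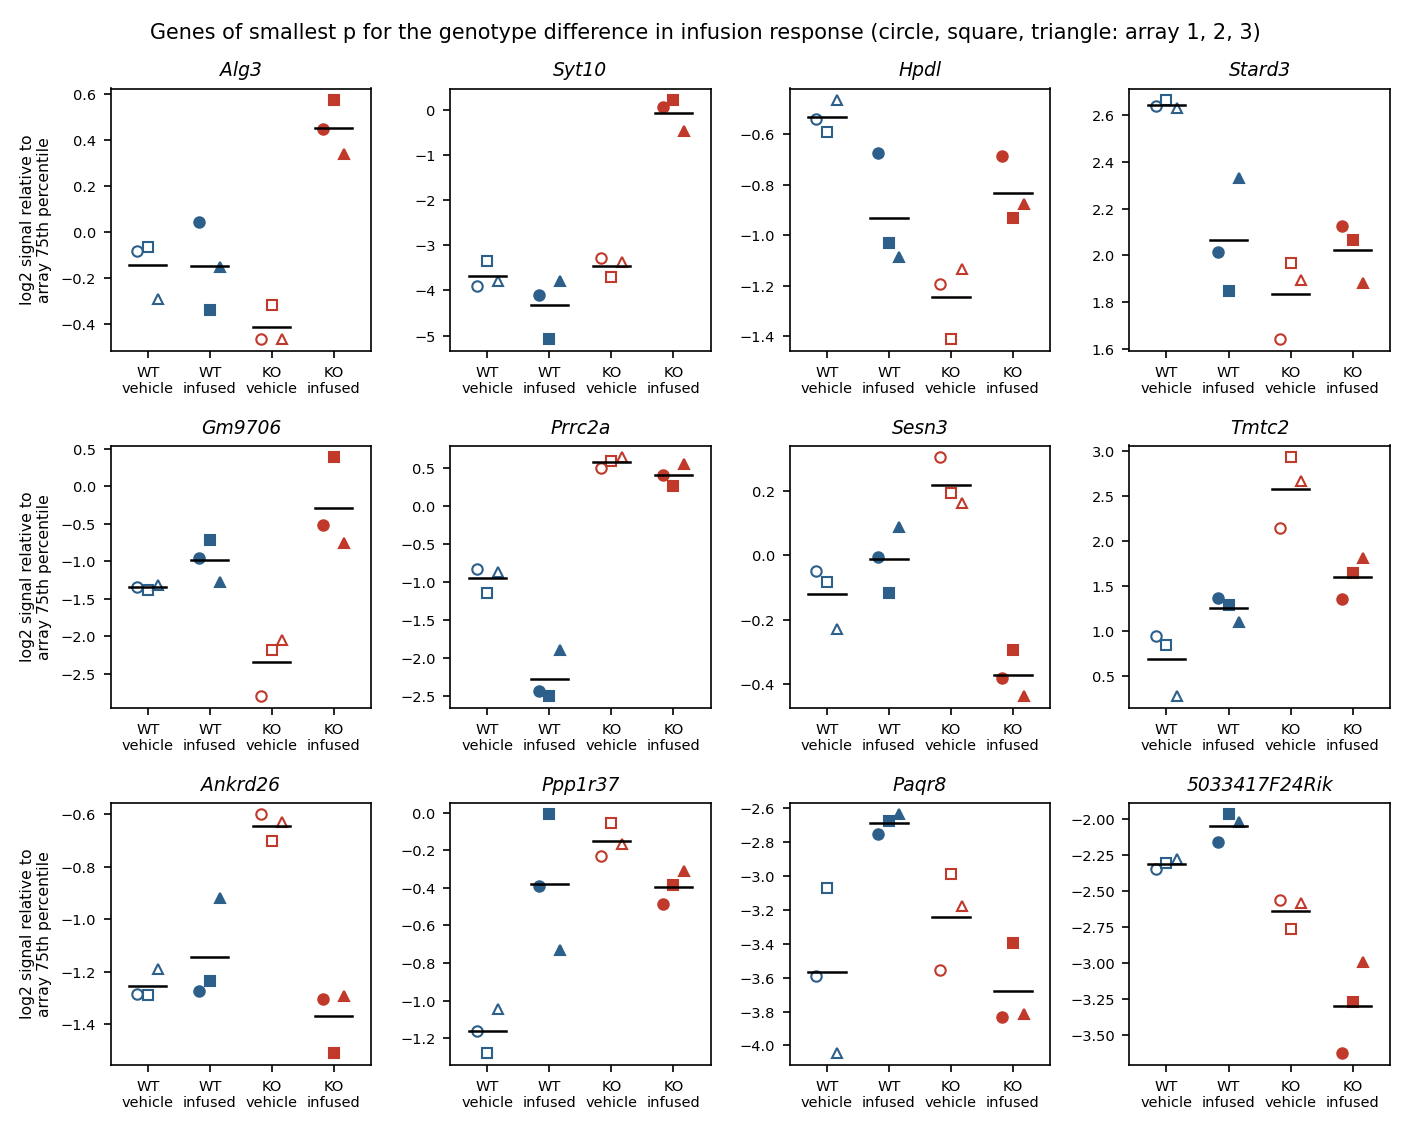
Log2 signal relative to the array's 75th percentile (y axis) of the 12 named genes of smallest p on each of the 12 arrays, by group (x axis; open symbols vehicle, filled symbols infused, bars group means). Syt10 is high on the 3 infused knockout arrays alone, while Stard3, Prrc2a, Ppp1r37 and Paqr8 changed in the wild type.

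The list of IL-17 cytokines, their receptors and T helper 17 genes had 20 entries, of which 12 could be tested; 1 had an unadjusted p under 0.05 with the positive sign and 1 with the negative, and the median difference was 0.00, beside -0.01 over all genes. Il17d, a family member made by many non-lymphoid cells (mm9 chromosome 14, 58161931 to 58161990), read 1.47, 1.61 and 1.73 with vehicle and 0.49, 0.37 and 1.44 with infusion in the knockout. The wild-type arrays read -0.35, -0.13 and -0.13 and then -0.13, -0.06 and 0.00. Il17d fell 1.79-fold in the knockout (adjusted p = 0.0048), from a vehicle level that was already 1.80 log2 units above the wild type's (adjusted p = 1.9e-06). The difference was -0.97 ± 0.28 with a second probe at -0.30, it was -0.92 on the salt arrays, and it passed without infused knockout array 3 (-1.31). Il17b, another relative, rose 1.70-fold in the knockout (adjusted p = 0.010) with a difference of 0.67 ± 0.29.

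Of the receptor chains, Il17ra was dim, at -6.23, -3.24 and -4.22 and then -2.31, -2.98 and -2.42 in the knockout and at -4.53, -4.06 and -3.72 and then -3.21, -2.08 and -4.38 in the wild type. Its difference of 1.11 had a 95% interval of -0.55 to 2.77. Il17rc was bright, between 3.54 and 4.13 on the 12 arrays, with a difference of 0.18, an interval of -0.13 to 0.50 and a second probe at 0.31.

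Some of the genes that IL-17 is known to induce rose under infusion in each genotype. Of 26 such genes 21 could be tested; 10 rose in the knockout and 12 in the wild type, where 14.4% and 12.2% of all genes did, and 1 fell in the knockout. For the difference the list had 0 genes with an unadjusted p under 0.05 of the positive sign and 1 of the negative sign, which was Mmp9, and its median was -0.22. Leaving out 1 array at a time moved that median between -0.58 and 0.49, and a term for slide gave 0.32, so its sign depends on single arrays and on that term. Il6, the acute-phase cytokine, went from -5.69, -5.19 and -6.70 to 3.30, 0.65 and 0.92 in the knockout and from -6.82, -6.15 and -6.03 to 3.02, 4.73 and -5.01 in the wild type. No vehicle array was well above background, and the third wild-type infused array stayed near the controls. The difference was 0.24 with an interval of -4.53 to 5.0, and its sign was not stable. It was -2.37 without the third arrays, -2.73 without infused wild-type array 3 alone, -0.60 without infused knockout array 1 and -0.18 without knockout vehicle array 3. Lcn2, the iron-binding neutrophil lipocalin, rose 5.08-fold in the knockout and 5.83-fold in the wild type. Its vehicle arrays read -1.88, -2.37 and -1.87 and its infused arrays 0.77, 0.53 and -0.38 in the knockout, against -1.83, -1.76 and -1.84 and then 0.90, 2.51 and -1.22 in the wild type. The groups did not overlap in either genotype, and the difference of -0.20 had an interval of -1.95 to 1.55.

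Cxcl1, a neutrophil chemokine, read -2.58, -3.29 and -2.88 and then 0.53, -1.12 and -2.52 in the knockout, and -2.13, -1.75 and -2.28 and then 0.99, 2.18 and -1.96 in the wild type. The third infused array lay among or next to the vehicle arrays in both genotypes, and the difference was -0.58 with an interval of -2.88 to 1.72. Cxcl5, a related chemokine, read -3.54, -3.63 and -2.53 and then -1.57, -2.21 and -4.28 in the knockout, and -3.03, -2.58 and -3.24 and then -0.21, 0.00 and -2.14 in the wild type. It rose 4.49-fold in the wild type (adjusted p = 0.022) and its change of 0.55 in the knockout did not pass (adjusted p = 0.58), yet the difference of -1.62 ± 0.93 did not pass (unadjusted p = 0.098) and was 0.56 with a term for slide. Mmp9, the gelatinase of neutrophils and macrophages, fell in the knockout (adjusted p = 0.00047) from -2.54, -3.01 and -3.60 to -5.11, -6.39 and -6.65, where no array was well above background. In the wild type it read -3.55, -3.47 and -4.20 and then -4.98, -3.51 and -6.46. The difference was -1.76 ± 0.72 (unadjusted p = 0.025), and -1.0 where signals were set no lower than the detection limit.

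Most inflammatory cytokines and chemokines that could be tested, 27 of 33, also rose. In the knockout 15 rose and 1 fell, and in the wild type 19 rose and 1 fell, where 14.4% and 12.2% of all genes rose. For the difference 1 had an unadjusted p under 0.05, with the positive sign, around a median of -0.07 that became 0.94 with a term for slide. Ccl2, the main monocyte chemokine, rose 34.4-fold in the knockout and 21.9-fold in the wild type. It went from -0.32, -0.07 and -0.10 to 5.66, 4.10 and 5.06 in the knockout and from -1.06, -0.45 and 0.19 to 4.80, 5.33 and 1.90 in the wild type. The difference was 0.65 with an interval of -1.21 to 2.51, and -0.46 without the third arrays. Cxcl9, an interferon-gamma-induced chemokine and the list's positive gene, read -4.82, -5.01 and -6.85 with vehicle in the knockout, none well above background, and then -3.78, -2.72 and -3.60. The wild-type arrays read -4.09, -4.24 and -3.54 and then -3.54, -3.73 and -3.42. Its difference of 1.80 became 0.80 where signals were set no lower than the detection limit. Spp1, the matrix protein osteopontin made by activated macrophages and smooth muscle, went from -4.95, -5.42 and -5.07 to 2.40, 1.83 and -1.46 in the knockout and from -5.08, -5.47 and -4.42 to 2.53, 2.43 and -0.38 in the wild type. No vehicle array was well above background, and the difference was -0.45 with an interval of -3.11 to 2.21.

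**Figure D3:**
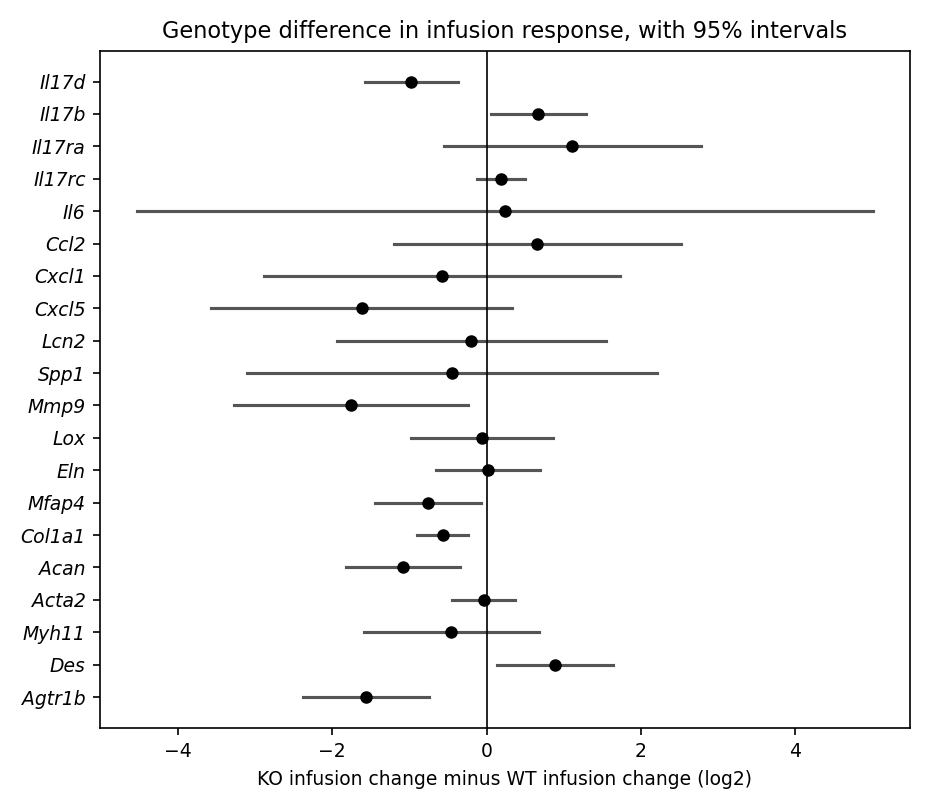
Difference between the infusion changes of knockout and wild type (x axis, log2; points) with its 95% interval (lines) for 20 IL-17, inflammatory, matrix, muscle and angiotensin genes. The intervals of Il6 (-4.53 to 5.0) and Spp1 (-3.11 to 2.21) are wide, those of Acta2 (-0.45 to 0.37) and Il17rc (-0.13 to 0.50) narrow, and that of Agtr1b (-2.38 to -0.75) lies below 0.

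Interferon-response genes had mostly positive differences, both on plain water and on the salt arrays. All 30 members could be tested, 28 had a positive difference on plain water, and the median was 0.74, beside -0.01 over all genes. Of the 30, 10 had an unadjusted p under 0.05 with the positive sign, where 3.09% of all genes did, and 0 with the negative sign; with limma 0 passed the adjusted threshold. In the knockout 18 members rose and 0 fell, and in the wild type 3 rose and 1 fell. Over all genes 14.4% rose and 16.2% fell in the knockout, and 12.2% rose and 13.7% fell in the wild type. All 3 infused arrays lay above all 3 controls for 19 members in the knockout and 4 in the wild type, where 17.9% and 16% of all genes did. This list had been noticed in earlier work on these data, so its counts are a description.

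The promoters of some of these genes are shown because the response is known to act through them. Each run is the 150 bases before the RefSeq transcription start (GRCm38.p6), 5′ to 3′ on the gene's strand, with capitals for matches to GAAANNGAAA, the core of the interferon-stimulated response element, on either strand, overlapping matches included.
Isg15, chr4:156200819-156200968, minus strand: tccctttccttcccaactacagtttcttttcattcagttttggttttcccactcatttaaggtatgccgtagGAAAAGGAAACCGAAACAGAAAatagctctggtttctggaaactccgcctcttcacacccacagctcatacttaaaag
Ifit1, chr19:34640739-34640888, plus strand: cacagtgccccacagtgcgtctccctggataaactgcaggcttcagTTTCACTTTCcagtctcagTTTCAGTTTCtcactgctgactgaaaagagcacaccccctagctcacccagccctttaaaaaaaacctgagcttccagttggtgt
Oas1a, chr5:120907526-120907675, minus strand: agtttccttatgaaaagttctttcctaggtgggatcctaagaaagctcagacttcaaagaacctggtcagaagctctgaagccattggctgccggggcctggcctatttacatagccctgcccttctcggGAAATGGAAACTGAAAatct
Oasl1, chr5:114923090-114923239, plus strand: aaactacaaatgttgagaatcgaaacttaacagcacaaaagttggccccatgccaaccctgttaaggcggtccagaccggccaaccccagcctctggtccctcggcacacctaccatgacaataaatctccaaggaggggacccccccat
Isg15 holds 3 overlapping matches, Ifit1 2 on the opposite strand, Oas1a 2 overlapping and Oasl1 none in this window. Among 22 members whose promoter RefSeq gave, 11 (50%) held the motif within 250 bases before the start of any of their promoters. By the same count 410 of 12484 tested genes did (3.28%). The median difference was 0.90 over the 11 members with a match and 0.57 over the 11 without, so both sets lay on the positive side.

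Isg15 encodes a ubiquitin-like modifier (probe at mm9 chromosome 4, 155573649 to 155573708). It read 0.32, 1.46 and 1.52 with vehicle and 3.47, 4.36 and 2.70 with infusion in the knockout, and 0.21, 0.48 and 0.64 and then 1.65, 1.95 and 0.81 in the wild type. Every infused knockout array lay above every other array. Isg15 rose 5.31-fold in the knockout (adjusted p = 0.00027), its 2.03-fold change in the wild type did not pass (adjusted p = 0.054), and the difference was 1.38 ± 0.54 (unadjusted p = 0.018, adjusted p = 0.67). Oasl1, a member of the oligoadenylate synthetase family that restrains IRF7 translation (mm9 chromosome 5, 115387861 to 115387920), read -1.68, -1.71 and -1.91 and then 1.34, 1.40 and -0.07 in the knockout, and -2.49, -1.61 and -1.46 and then -0.26, -0.64 and -1.95 in the wild type. Oasl1 rose 6.32-fold in the knockout (adjusted p = 0.00027) with a difference of 1.75 ± 0.59, the largest of the 30. In each genotype the third infused array was the lowest of its group for both genes.

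Usp18, the protease that removes ISG15 and damps interferon receptor signalling (mm9 chromosome 6, 121220874 to 121220933), read -0.62, -0.95 and -0.70 and then 0.69, 1.08 and -0.05 in the knockout, and -1.61, -0.98 and -0.80 and then -0.56, -0.71 and -1.56 in the wild type, a difference of 1.14 ± 0.42. Ifit1, which binds foreign RNA caps (mm9 chromosome 19, 34723796 to 34723855), read -2.12, -1.41 and -1.89 and then -0.28, 0.12 and -0.90 in the knockout, and -2.43, -1.88 and -1.64 and then -1.24, -1.18 and -2.01 in the wild type, a difference of 0.94 ± 0.43. Both rose in the knockout (adjusted p = 0.0029 and 0.0020), and in both the wild-type groups overlapped. Of the members described, Ifi35 and Xaf1 had the smallest p, and the others were chosen after their values were seen. Xaf1, a pro-apoptotic interferon target (mm9 chromosome 11, 72122169 to 72122228), rose 1.74-fold in the knockout, from 0.64, 0.41 and 0.71 to 1.31, 1.77 and 1.09, and read 0.17, 0.61 and 0.58 and then 0.42, 0.31 and 0.51 in the wild type, a difference of 0.84 ± 0.26 (unadjusted p = 0.0043). Ifi35 (mm9 chromosome 11, 101319011 to 101319070) differed in form: it fell 1.55-fold in the wild type, from 1.99, 2.11 and 2.03 to 1.47, 1.28 and 1.49 (adjusted p = 0.0011), and read 1.94, 1.87 and 2.03 and then 1.84, 2.17 and 1.88 in the knockout, a difference of 0.65 ± 0.17.

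**Figure D4:**
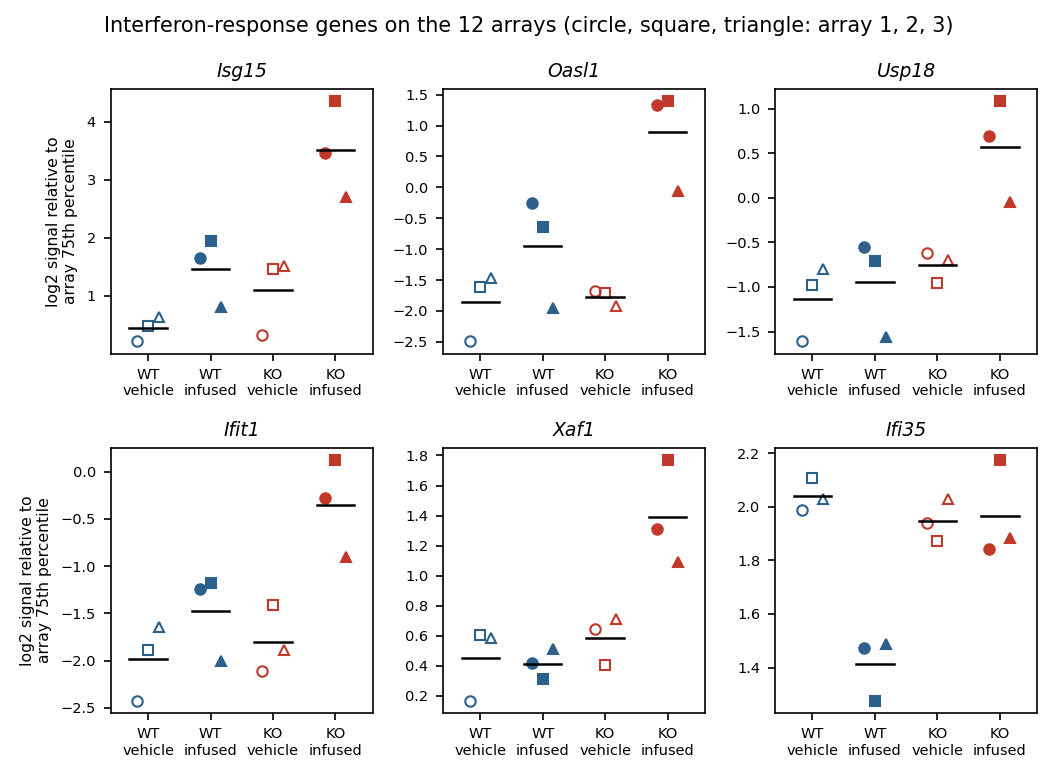
Log2 signal relative to the array's 75th percentile (y axis) of 6 interferon-response genes on the 12 arrays by group (x axis; open symbols vehicle, filled symbols infused, bars group means). Infused knockout arrays of Isg15 lie at 2.70 to 4.36, above all other arrays, whereas Ifi35 is low on the infused wild-type arrays, at 1.28 to 1.49.

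On the salt arrays the same list had a median of 0.76 with 25 of 30 members positive; 12 had an unadjusted p under 0.05 with the positive sign, where 5.33% of all genes did, and 1 with the negative sign. Leaving out the third infused arrays gave a median of 0.81 on plain water, leaving out 1 array at a time 0.50 to 0.99, and a term for slide 0.40 with 20 of 30 positive. Not every member took part. Irf1 had a difference of 0.04 and Ifit2 of -0.18. Gbp2, a target of interferon gamma, had 0.27. The macrophage and monocyte list, 27 markers tested, had a median difference of 0.01, which ran from -0.42 to 0.56 with 1 array left out at a time and was 0.88 with a term for slide, 25 of 27 positive. Its summed level, as the median of its members, was 2.29 to 3.88 on infused knockout arrays and 2.30 to 3.34 on infused wild-type arrays. In bulk tissue a change in cell number and a change in RNA per cell cannot be told apart.

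Cell cycle and replication genes rose with infusion in both genotypes. Of 29 cell cycle genes tested, 28 rose in the knockout and 28 in the wild type, with median changes of 3.93 and 3.95. Of 24 DNA replication genes 22 and 20 rose. Over all genes 14.4% rose in the knockout and 12.2% in the wild type. The median difference between genotypes was -0.04 for cell cycle genes, with 1 gene of unadjusted p under 0.05 of the positive sign, and 0.13 for replication genes, with none. Ndc80, a kinetochore protein, was that gene: it read -3.46, -3.79 and -3.64 and then 0.03, 0.20 and -1.82 in the knockout, and -1.49, -1.79 and -1.27 and then 0.05, 0.30 and 0.20 in the wild type. The infused levels overlapped and the vehicle level was 2.12 log2 units lower in the knockout (adjusted p = 0.00037), which gave a difference of 1.40 ± 0.55; without infused knockout array 3 it was 2.05 and passed. Ccne1, the cyclin that starts S phase, had a difference of 1.13 with an interval of -0.18 to 2.43, and a second probe gave 2.54. On the salt arrays the cell cycle median was 0.64 with 28 of 29 positive, beside 11 of 29 on plain water. The plain-water median depends on the arrays and the model used, with 0.39 without the third arrays and 1.66 with a term for slide, 29 of 29 positive. With that term the replication median was 1.40 with 24 of 24 positive. The cause was not tested.

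Some genes of the matrix that BAPN acts on rose with infusion. Of 25 genes of elastic fibres and crosslinking, 12 rose and 3 fell in the knockout and 9 rose and 3 fell in the wild type, where 14.4% and 12.2% of all genes rose. The median difference was 0.02, and 1 had an unadjusted p under 0.05, with the negative sign. Lox, the lysyl oxidase that BAPN inhibits, rose 3.71-fold in the knockout, from 1.49, 1.60 and 1.64 to 3.88, 3.27 and 3.26, and 3.87-fold in the wild type, from 1.32, 0.90 and 1.12 to 3.55, 3.66 and 1.98. The difference was -0.06 with an interval of -0.98 to 0.86, and a second probe gave 0.11. Eln, elastin itself, rose 2.36-fold and 2.33-fold, and the interval of its difference was -0.66 to 0.69. Mfap4, a microfibril-associated protein and the negative gene of the list, had a difference of -0.75 ± 0.33.

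Collagen genes leaned towards the wild type without passing. Of 30 collagen and fibrillar matrix genes 11 rose in the knockout and 15 in the wild type, where 14.4% and 12.2% of all genes did. A positive difference was found for 10 of the 30, and the median was -0.17. An unadjusted p under 0.05 was found for 2, both negative, where 3.47% of all genes had a negative one. Leaving out 1 array at a time kept the median between -0.26 and -0.12. Col1a1, the main chain of type I collagen, changed by 0.18 in the knockout, from 6.82, 6.85 and 6.78 to 6.95, 6.96 and 7.09 (adjusted p = 0.24), and rose 1.68-fold in the wild type, from 6.80, 6.59 and 6.83 to 7.47, 7.68 and 7.33 (adjusted p = 0.00022). The 3 infused wild-type arrays lay above the 3 infused knockout arrays, and the difference was -0.57 ± 0.16 (unadjusted p = 0.0018, adjusted p = 0.49), beside -0.45 on the salt arrays. Acan, the cartilage proteoglycan aggrecan, rose 2.08-fold in the knockout, from -0.49, -0.41 and -0.06 to 1.05, 0.64 and 0.52, and 4.40-fold in the wild type, from 0.44, 0.40 and -0.13 to 2.89, 2.66 and 1.58. The difference was -1.08 ± 0.35 with all arrays and passed without infused wild-type array 3 (-1.48). Alpl, the alkaline phosphatase of mineralising cells, leaned the other way, with a difference of 0.93 ± 0.44.

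Of 27 matrix proteases and inhibitors tested, 6 had a positive difference and the median was -0.27. An unadjusted p under 0.05 was found for 3, all negative, where 3.47% of all genes had a negative one. These were Mmp9, Mmp11 and Timp2. Timp2, an inhibitor of matrix metalloproteinases, fell 1.5-fold in the knockout, from 8.07, 8.11 and 8.12 to 7.23, 7.47 and 7.84 (adjusted p = 0.0045), and read 8.10, 8.04 and 8.01 and then 8.01, 7.86 and 8.15 in the wild type, a difference of -0.55 ± 0.20. A second probe gave -0.25, and a term for slide -1.07. Mmp11, stromelysin 3, had a difference of -0.51 ± 0.18. Among 27 TGF-beta ligands, receptors and targets 4 had an unadjusted p under 0.05, all negative, where 3.47% of all genes had a negative one. The list's median was -0.07. Id1 and Id3, transcriptional inhibitors induced by bone morphogenetic proteins, were the leading pair. Id1 read 3.40, 3.74 and 3.47 and then 3.31, 2.98 and 3.08 in the knockout, and 3.47, 3.58 and 3.28 and then 3.61, 4.03 and 4.66 in the wild type. Id3 read 4.53, 4.69 and 4.55 and then 4.40, 4.33 and 4.18, and 5.04, 4.87 and 4.64 and then 5.38, 5.29 and 5.18. Both rose in the wild type (adjusted p = 0.042 and 0.047), their infused knockout arrays all lay below the knockout controls, and the differences were -1.07 ± 0.32 and -0.72 ± 0.22.

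Agtr1b encodes an angiotensin II type 1 receptor and had the smallest p among the lists' genes outside the 12 (mm9 chromosome 3, 20213539 to 20213598). It rose 3.29-fold in the wild type, from -3.39, -3.40 and -3.59 to -1.55, -2.02 and -1.66 (adjusted p = 0.00041), and read -2.10, -2.41 and -2.33 and then -1.86, -1.81 and -2.71 in the knockout. The infused groups overlapped and the vehicle level was higher in the knockout by 1.18 (adjusted p = 0.0026), and the difference was -1.56 ± 0.39 (unadjusted p = 0.00076, adjusted p = 0.38). Of 14 renin-angiotensin and mineralocorticoid genes tested, 2 had an unadjusted p under 0.05, both negative, where 3.47% of all genes had a negative one. The list's median was -0.18.

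Smooth muscle genes fell in part under infusion, 8 of 24 in the knockout and 10 in the wild type, where 16.2% and 13.7% of all genes did. Their median difference was 0.04 with 13 of 24 positive, and -0.08 on the salt arrays. With a term for slide it was -0.44 with 5 of 24 positive. The lowest member was Mylk, a myosin light chain kinase, at -0.91 ± 0.44. Acta2, smooth muscle actin, had a difference of -0.04 with an interval of -0.45 to 0.37, whose sign turned to 0.11 with quantile normalisation. Myh11, the smooth muscle myosin heavy chain, read 6.64, 6.59 and 6.66 and then 4.73, 4.83 and 6.47 in the knockout, and 6.93, 6.74 and 7.05 and then 5.71, 5.69 and 6.82 in the wild type. The third infused arrays lay among or next to the vehicle arrays in both genotypes, and the difference was -0.46 with an interval of -1.58 to 0.67. Des, desmin, fell 1.65-fold in the wild type (adjusted p = 0.043) with a difference of 0.88 ± 0.36, and Mustn1, a small musculoskeletal nuclear protein, had 0.64 ± 0.24. Among 19 fibroblast genes the median was 0.29, beside -0.25 on the salt arrays and -0.19 with a term for slide; Smoc2, a matricellular protein, fell in the knockout (adjusted p = 0.011) with a difference of -0.70 ± 0.22, and Cd34 had 0.43 ± 0.18. Of 23 endothelial genes 7 had a positive difference around a median of -0.17 that became 0.33 with a term for slide, and Kdr, the VEGF receptor 2, had -0.57 ± 0.25 with a second probe at 0.11.

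Markers of other cell types that a dissected aorta can carry also differed between arrays. All 13 mesothelial markers tested had a positive difference on plain water, with a median of 1.46. An unadjusted p under 0.05 was found for 3, where 3.09% of all genes had a positive one. The list's median level was -0.42, -0.69 and -0.42 on the knockout vehicle arrays and 0.01, 0.52 and -0.08 on the infused ones. On the wild-type arrays it was -2.61, -0.85 and -0.91 with vehicle and -2.90, -1.31 and -3.06 with infusion. The infused wild-type arrays 1 and 3 were the lowest of the 12. Krt19 and Krt7, keratins of the mesothelial lining, had differences of 2.16 ± 0.91 and 1.99 ± 0.76. On the salt arrays the list had 1 of 13 positive and a median of -1.55, the opposite sign, and a term for slide gave 0.38 on plain water. Their part in the other differences was not tested.

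T cell and thymocyte markers, 17 tested, had a median difference of -0.53, which became -0.12 where signals were set no lower than the detection limit and ran from -0.96 to 0.36 when 1 array at a time was left out. A term for slide gave -1.77, and on the salt arrays the median was 0.93 with 15 of 17 positive, the opposite sign. Cd247, the T cell receptor zeta chain, rose 2.73-fold in the wild type, from -1.67, -2.26 and -3.27 to -1.31, -0.83 and -0.73 (adjusted p = 0.0065). It read -3.64, -2.41 and -2.62 and then -3.17, -3.10 and -2.25 in the knockout, and the difference was -1.40 ± 0.50. Of 18 neutrophil markers 8 rose in the knockout and 7 in the wild type, where 14.4% and 12.2% of all genes did. Their median difference was -0.22 with 3 of 18 positive, and leaving out 1 array at a time moved it between -1.13 and 0.54. It took the opposite sign on the salt arrays (0.19, 13 of 18 positive) and with a term for slide (0.19). Erythroid markers, 6 tested, had a median of -0.15, beside -6.02 with a term for slide and 1.94 on the salt arrays. B cell markers, 7 tested, had -0.15, beside -0.44 and 1.01. Cardiac muscle markers, 12 tested, had a median of -0.15, beside -0.98 with a term for slide and -0.73 on the salt arrays. Of the 12, 6 had a positive difference and 0 an unadjusted p under 0.05, and the differences ran from -2.82 to 2.56. Myl3, a ventricular and slow-muscle myosin light chain and the lowest of them, read 1.81, 0.90 and -0.81 and then -4.21, -4.08 and 0.31 in the knockout. The wild-type arrays of Myl3 read -3.23, -1.45 and -2.96 and then -2.71, -3.02 and -3.33, and the difference of -2.82 ± 1.56 ran from -4.30 to -2.05 with 1 array left out at a time.

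Genes of protein folding and respiration had small positive median differences on plain water and negative ones on the salt arrays. Of 22 unfolded protein response genes 18 had a positive difference, with a median of 0.21. In the knockout 11 rose and in the wild type 8, where 14.4% and 12.2% of all genes did. Dnajb9, a chaperone of the endoplasmic reticulum, had the only unadjusted p under 0.05, with 0.82 ± 0.30. Without the third arrays that median was 0.01, with a term for slide 0.54, and on the salt arrays -0.19 with 6 of 22 positive. Of 28 oxidative phosphorylation genes 22 had a positive difference, with a median of 0.13. An unadjusted p under 0.05 was found for 2, both positive, where 3.09% of all genes had a positive one. Cox5a, a cytochrome oxidase subunit, rose 1.61-fold in the knockout (adjusted p = 0.0025) with a difference of 0.47 ± 0.21. That list's median was 0.55 with a term for slide and -0.14 on the salt arrays, with 5 of 28 positive. Of 20 NADPH oxidase and antioxidant genes 16 were positive, with a median of 0.19, and Srxn1, which repairs peroxiredoxins, rose 1.43-fold in the knockout (adjusted p = 0.0015) with a difference of 0.38 ± 0.15. Ppargc1a, the coactivator of mitochondrial genes, fell 3.06-fold in the knockout (adjusted p = 0.0015) with a difference of -1.03 ± 0.46. Its fatty acid oxidation list, 25 tested, had a median of 0.11 with 14 positive, and its brown adipocyte list, 12 tested, -0.30 with 3 positive. The circadian clock gene Bhlhe40 rose 2.15-fold in the knockout (adjusted p = 0.00055) with a difference of 0.84 ± 0.27, and 1.36 on the salt arrays. The clock list, 18 tested, leaned the other way, with a median of -0.19 and 7 positive. That median was 0.39 on the salt arrays and -1.29 with a term for slide. Ribosomal protein genes, 27 tested, had a median of 0.01, beside -0.37 on the salt arrays and 0.37 with a term for slide, and 0 with an unadjusted p under 0.05.

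**Figure D5:**
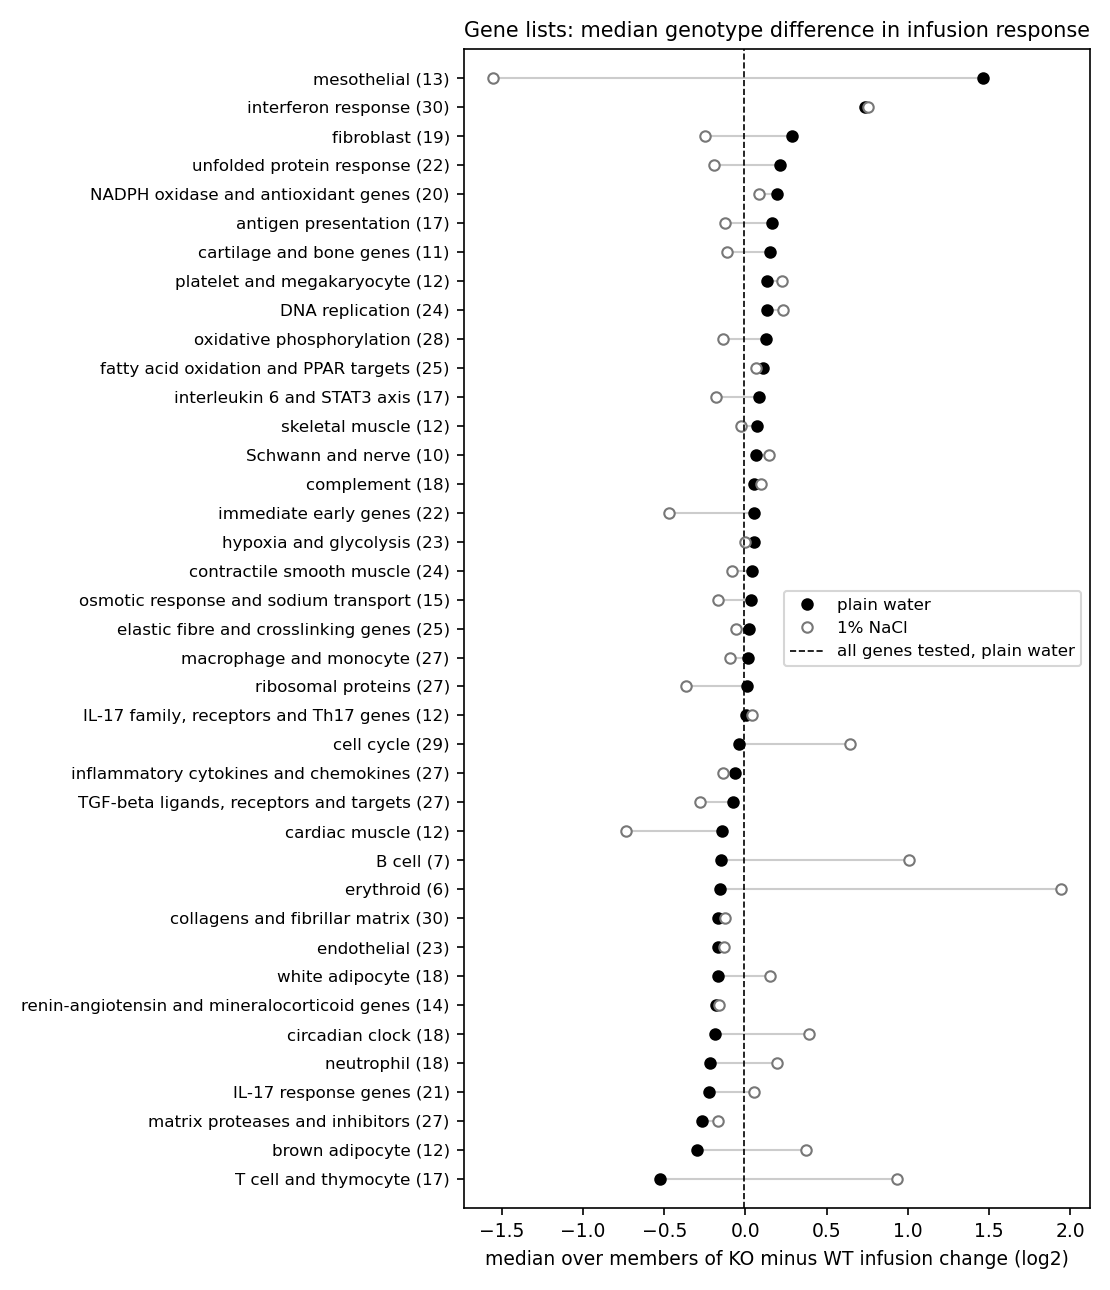
Median over each list's members (number tested in brackets) of the difference between the infusion changes of knockout and wild type (x axis, log2), on plain water (filled) and on the separate salt arrays (open); the dashed line is the median of all genes on plain water. Interferon-response genes lie at 0.74 and 0.76, whereas mesothelial markers lie at 1.46 and -1.55.

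The same difference of differences on the 12 salt arrays, which share no array with plain water, passed for 17 of 23505 genes (0.0723%), 15 of them positive. On plain water 16 of the 17 had the same sign and 9 an unadjusted p under 0.05. Stard3 (1.15, adjusted p = 0.012) and Gm9706 (2.18, adjusted p = 0.024) passed on salt. Both were among the 12 genes of smallest p on plain water. The water and salt differences share no array, but the model took each gene's spread from the water and salt arrays together. The SE was therefore the same in both sets, 0.16 for Stard3 and 0.36 for Gm9706. A small spread favours a small p in both sets, so passing on salt is not a separate test of these genes. Mx2, an interferon-induced GTPase, passed on salt (1.45, adjusted p = 0.049) and had 0.33 on plain water. At an unadjusted p under 0.05 on plain water, 966 of 1541 genes (62.7%) had the same sign on salt. Over all genes 51.7% did. Of the 1541, 212 had the same sign and also an unadjusted p under 0.05 on salt, a count that the shared spread favours too. The slides of the infused arrays differ only in part between the sets. Infused knockout array 3 on plain water shared a slide with the infused knockout salt arrays. Infused wild-type salt array 3 shared a slide with the infused wild-type arrays on plain water. Each genotype's vehicle arrays shared a slide across the sets. The difference between the water and the salt contrast was tested too, and with limma 0 genes (0%) passed and 1289 had an unadjusted p under 0.05.

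Because slide followed genotype, and on plain water also infusion in the wild type, a term for slide was fitted as well. It could be estimated only through groups whose arrays were split over slides, that is array 3 of the infused knockouts and 1 of the 3 infused wild-type salt arrays. With it 46 genes passed (0.196%), 13 positive and 33 negative, and all 46 had the same sign without it, 24 with an unadjusted p under 0.05. Of these 46, 6 were among the 43 that passed without the third arrays. In both views the knockout's infusion change rests on infused arrays 1 and 2 alone, because the slide term takes up infused knockout array 3. The overlap is therefore not agreement between separate tests. Genes in both views, named after their values were seen, included Phf1 (-1.41 ± 0.32), Phc3, a Polycomb protein (-1.06 ± 0.25), Gabre, a GABA receptor subunit (-0.95 ± 0.37), and Fignl1, a DNA repair ATPase (1.36 ± 0.46), with the values of the fit without slide. Mylk, the myosin light chain kinase of smooth muscle (-0.91 ± 0.44), and Mybl2, a transcription factor of dividing cells (1.04 ± 0.48), passed with the slide term and not without it. Vehicle levels (knockout minus wild type, without the slide term) already differed by 2.69 for Phf1, 2.14 for Phc3, -1.28 for Fignl1 and -1.04 for Mybl2, and all 4 passed. Infused levels differed by 0.08 for Fignl1 and 0.004 for Mybl2. Genotype and slide cannot be told apart in these levels. The median SE was 0.39 with the slide term and 0.29 without it, and the correlation across genes of the 2 genotypes' infusion changes was 0.483 with it.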

How the data were processed

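Per the labels' protocols, Cy3-labelled cRNA made from total RNA went onto Agilent arrays of 1 colour; the protocols speak of RNA from cells where the sample labels name the aorta. The scanner files hold, as deposited, a linear intensity from which background was already subtracted, with no normalisation across arrays. The Feature Extraction version is 10.7.1.1 per the file headers and 9.5.1.1 per the submitters' processing notes. The authors' processed values, also deposited as intensity, are quantile-normalised versions of the same arrays (lowest Spearman rho with the scanner values 0.99997), whose further steps stay unknown, and served as an alternative.

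Of 59305 spots an array, 2910 outlier spots over the 24 arrays were dropped, and a probe's spots averaged. Log2 signals were scaled by subtracting each array's 75th percentile (383 to 594 on the knockout and 269 to 459 on the wild-type water arrays). Probes were kept if some group had them well above background on its 3 arrays and every group had at least 2 values, and the brightest stood for a gene. Names came from RefSeq on GRCm38.p6 (27235 of 55681 probes by accession, 3581 by symbol); coordinates are the array design's, on mm9. Promoters are RefSeq's on GRCm38.p6.

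A linear model over all 24 arrays with 8 group means and a shared spread (limma 3.58.1, lmFit and eBayes, R 4.3.3) gave the contrast, with Benjamini-Hochberg adjustment over all genes and a threshold of 0.05. The model was also run on simulated data with independent noise for each gene. Those data held no slide effect and no outlying arrays, so the run does not bear on either. The genes named were those passing, filled up to 6 of each sign by smallest p among genes with a RefSeq symbol measured in each water group; up to 4 passing members of each list, otherwise the 2 of smallest p; 14 genes the study is about, such as Il17a and Il6; and the 4 of the leading 12 with the smallest p on salt, Stard3, Gm9706, Syt10 and Sesn3. The comparison, the gene lists and the rules were chosen with earlier results of these data known. Alternatives were quantile normalisation, normexp with an offset of 50, the authors' values, 2 other filters, the mean of probes, a trended prior, slide as a fixed and a random block, a replicate block, the water arrays alone, each water array left out, and the third infused arrays left out. Setting signals no lower than the detection limit was added after seeing the data. Titles and source names number the wild-type salt arrays differently; the source names were used.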

Additional observations from a re-analysis of the deposited data

Results flagged for a closer look

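Among the genes named, 6 had all 3 infused arrays on one side of their controls in the knockout and on the opposite side in the wild type. Over all genes 49 of 23481 did (0.209%). Many named genes were chosen by a small p for the difference, which favours such opposite changes, so the count of 6 is a description. The difference was 0.81 for Hpdl, -1.54 for Tmtc2, -1.03 for Ppp1r37, -0.92 for 5033417F24Rik, -1.07 for Id1 and -0.72 for Id3 (log2, knockout minus wild type). The difference itself was tested with limma and passed in none of the 6 with all arrays; Hpdl, Tmtc2 and 5033417F24Rik passed without infused knockout array 3 and Ppp1r37 without infused wild-type array 3.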

How the results depend on the processing

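The number of arrays, dim signals and the spread between infused arrays limit the results, and no difference passed with all arrays. Il6 and Spp1, dim on the vehicle arrays and widely spread over the infused arrays, have wide intervals. Counts of genes that passed were 0 under quantile normalisation, normexp, the authors' values, the mean of probes, probes bright on all 24 arrays, a trended prior, a random slide block and the water arrays alone. They were 1 (1 positive) without the filter on dim probes, 1 (1 negative) with signals set no lower than the detection limit, 46 (13 and 33) with slide as a fixed block and 43 (16 and 27) without the third infused arrays. At an unadjusted p under 0.05 there were 5392 genes with slide as a fixed block, 2607 as a random block, 903 on the water arrays alone and 2934 without the third infused arrays. Leaving out each array in turn gave 0 to 63 genes (63 without infused knockout array 3, 14 without infused wild-type array 3, 1 without knockout vehicle array 3), 0 to 18 positive and 0 to 45 negative, and 1229 to 3553 at an unadjusted p. The replicate block gave 0 genes passing (1462 at an unadjusted p). Residuals of same-numbered water arrays correlated at -0.13 to 0.45 (median -0.025), and those of different-numbered arrays at -0.51 to 0.38 (median -0.001). These ranges overlap and cannot decide whether the numbers pair the samples.
Signs turned for Acta2 (0.11 with quantile normalisation and 0.11 with the authors' values), Eln (-0.00854 with normexp and -0.049 without the third infused arrays) and Lox (0.025 with the mean of probes, 0.61 with slide as a fixed block and 0.31 as a random block). With slide as a fixed and a random block Cxcl1 became 1.64 and 0.65 and Spp1 2.73 and 1.32, and Cxcl5 became 0.56 with the fixed block. Without the third infused arrays Il6 became -2.37 and Ccl2 -0.46. The cause was not tested. With 1 array left out at a time the differences ran for Eln -0.21 to 0.19, Acta2 -0.18 to 0.10, Il6 -2.73 to 2.14, Lox -0.60 to 0.24, Lcn2 -1.17 to 0.69, Cxcl1 -1.76 to 0.31, Spp1 -1.40 to 0.74 and Ccl2 -0.40 to 1.31.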
